A study of Mus musculus with 6 samples.

Results

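Transcripts of amino acid and neurotransmitter transporters were measured in mouse thymus after induction of the cytokine RANKL. The transporters were every gene of the solute carrier families Slc1, Slc3, Slc6, Slc7, Slc36, Slc38 and Slc43 whose symbol was the family name, the letter a and a number. Slc7a11 was left out by name, and a gene needed at least 10 reads summed over the 6 libraries. Of 59 matching symbols among 24054 genes in the table, 56 met this rule. Slc7a12, listed at 0 in every library, and Slc7a13, with 2 reads in all, did not.

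Whole thymus RNA was sequenced in 3 libraries of K5-rtTA:TetO-RANKL mice and 3 libraries of monogenic controls, which carry a single transgene. In the first group the keratin 5 promoter drives the doxycycline-dependent activator rtTA, and rtTA with doxycycline switches on the TetO-RANKL transgene, so induction takes place where keratin 5 is expressed, which includes medullary thymic epithelium. All animals were given doxycycline in food and water, for 2 weeks from 9 weeks of age according to the labels of the samples but for 1 week from 8 weeks of age according to the text of the series. Strain, sex and pooling were not given in the sources used here, and nothing states that each library came from its own animal, so p-values reflect how far these libraries spread, which may be technical in part. The libraries held 18254870, 25357060 and 20465867 counted reads in RANKL thymus, against 19771112, 18654395 and 21453466 in control thymus. At these depths 3 reads in a library correspond to 0.122 to 0.161 counts per 1000000 (CPM). The induced gene itself, Tnfsf11, had 3334, 4812 and 2389.7 CPM in the RANKL libraries, against 6.01, 6.34 and 8.89 CPM in the control libraries. The induced libraries were thus all far above the controls, and reads of the transgene and of the mouse's own gene cannot be told apart.

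Solute carriers of these families move amino acids and related small molecules across membranes. Cells take up arginine and lysine through the cationic amino acid transporters Slc7a1, Slc7a2 and Slc7a3, leucine and other large neutral amino acids through light chains bound to the heavy chain CD98 (Slc3a2), and glutamine and alanine largely through the sodium-coupled Slc38 and Slc1 carriers. The Slc6 family holds the carriers that clear neurotransmitters from synapses, and others for creatine, taurine and neutral amino acids. Arginase, which splits arginine into ornithine and urea, works inside the cell and can draw on imported arginine. In mouse macrophages Slc7a2 is the carrier classically tied to induced arginase and nitric oxide synthase.

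Slc7a2 and Slc6a14, which both carry cationic amino acids, rose steeply with RANKL, while Slc7a1, the cationic carrier found in most cell types, showed no called change. CD98 and its light chains Slc7a5 and Slc7a8 rose, whereas the neutral amino acid carriers Slc38a1, Slc38a2, Slc43a1 and Slc43a2 fell. All called Slc6 carriers were higher with RANKL, from the creatine carrier Slc6a8 to carriers of serotonin and dopamine.

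By edgeR's quasi-likelihood test at an adjusted p under 0.05, 27 of the 44 transporters tested were higher in RANKL thymus and 6 were lower. Over all 16096 genes tested, 33.8% were called higher and 29.6% lower, so a call in either direction was common in these libraries (63.4%). The median log2 fold change was 1.00 over the 44 transporters and -0.02 over all genes. A rise of at least 4-fold with a call was seen in 19 transporters, against 17.2% of all genes, and a fall of at least 2-fold with a call in 4, against 15.3%. Of the 44, 9 had fewer than 3 control libraries over the filter of 0.497 CPM and therefore entered the test mainly through their level with RANKL. All 9 were called higher and are among the 19 that rose at least 4-fold, which their selection favours. Of the other 35, 18 were called higher. The median log2 fold change was 0.74 over the 35 transporters with at least 10 reads in each library, against -0.0085 over all genes kept that way. The remaining 12 transporters did not pass the filter. Summed per kilobase of exon, which allows levels of different genes to be added, all 56 came to 625 ± 38.4 CPM per kb in RANKL thymus and 438 ± 58.5 in control thymus (mean ± SD, n = 3 each).

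**Figure D1:**
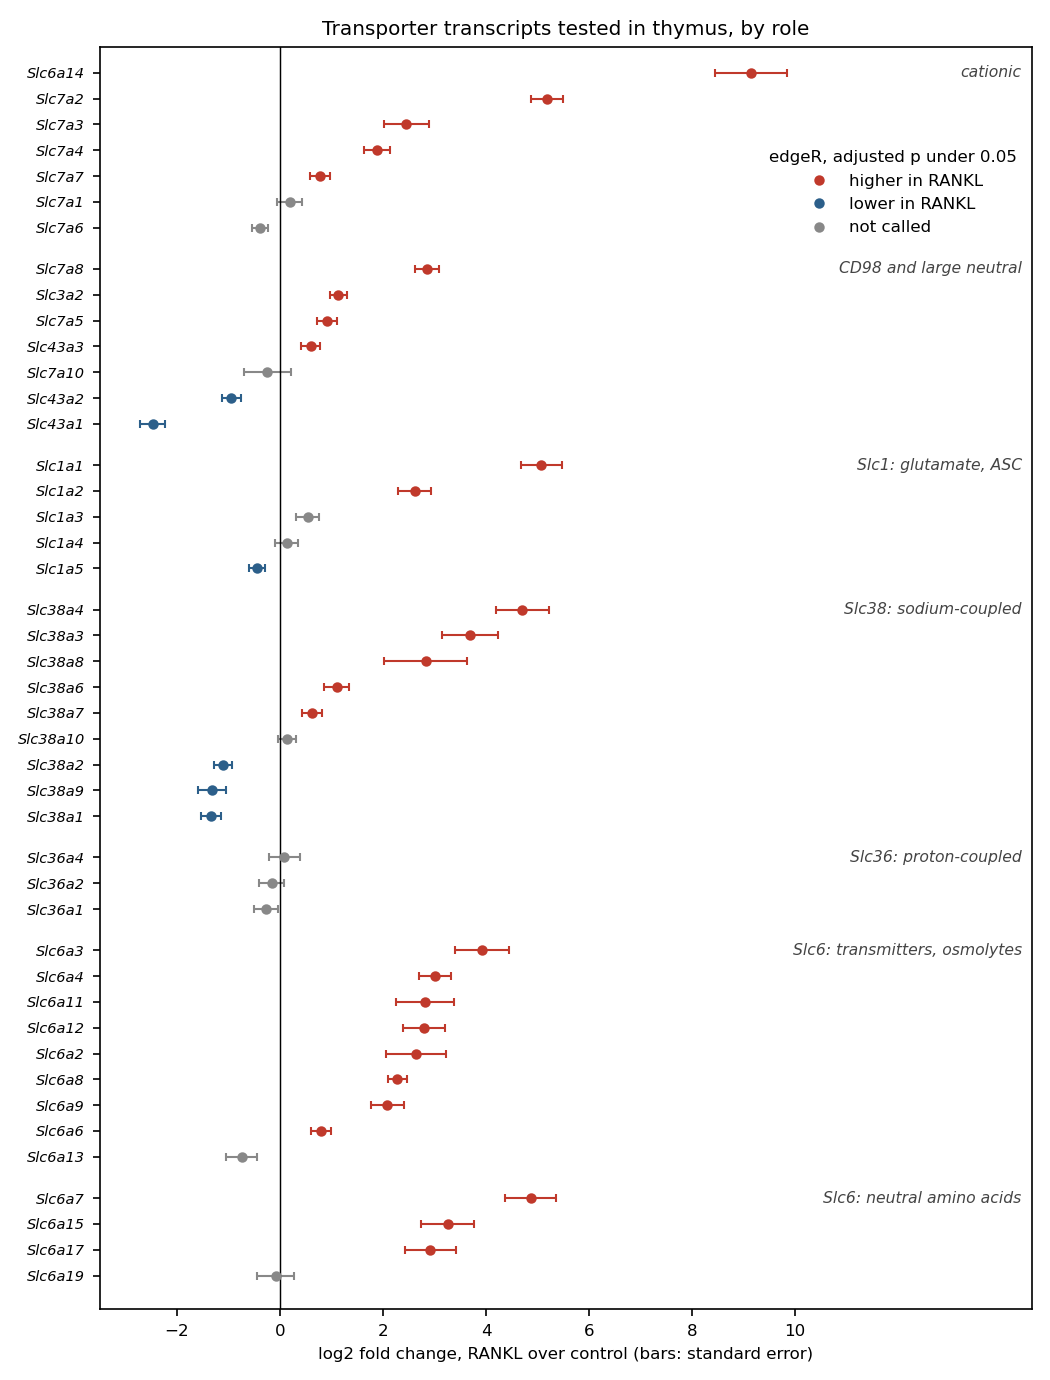
Log2 fold change, RANKL over control, of the 44 transporters tested, grouped by role. Points are edgeR estimates and bars their standard errors, coloured by call at an adjusted p under 0.05. Slc6a14 and Slc7a2 lead the cationic group at 9.15 and 5.18, and the 6 called falls lie among the large neutral, Slc1 and Slc38 carriers.

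The thymus of induced mice also differed in the transcripts of its cell types. Thymocyte markers (Cd3e, Cd4, Cd8a, Rag1 and others) were all lower, 10 of 10, and summed to 298 to 1158 CPM in the RANKL libraries and 10680 to 12036 CPM in the controls. Epithelial markers were higher for 9 of 10, at 7393 to 9385 CPM with RANKL and 1671 to 2034 CPM in controls. Macrophage markers were higher for 12 of 13, at 2252 to 3222 CPM with RANKL and 630.4 to 869 CPM in controls. Neutrophil markers were higher for 11 of 11, at 2994 to 6005 CPM with RANKL and 46.3 to 90.5 CPM in controls. Fibroblast markers were higher for 8 of 8, endothelial markers for 4 of 6 and erythroid markers for 0 of 3. None of the tested markers of these lists was at 0 in a library, and the globin genes Hba-a1, Hbb-b1 and Hbb-bs, which were not tested, were listed at 0 in all of them. In whole tissue, fewer cells of a type and less RNA per cell cannot be told apart, and the part of these shifts in any transporter's change was not tested.

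Promoter windows of 300 bases, running from 250 before to 50 after a RefSeq transcript start in GRCm38.p6, were available for 40 of the 56 transporters (61 windows), Slc7a2 not among them. Windows of cationic carriers are shown because this group holds both the steepest rise and a carrier without a called change. Capitals mark TGATGNAA, the core of the amino acid response element bound by ATF4 with C/EBP partners, in the Slc7a7 window, and TTCNNNGAA, the STAT element, in the Slc7a1 window. N is any base, and both strands were searched.
Slc6a14 (chrX:21714650-21714949, plus strand): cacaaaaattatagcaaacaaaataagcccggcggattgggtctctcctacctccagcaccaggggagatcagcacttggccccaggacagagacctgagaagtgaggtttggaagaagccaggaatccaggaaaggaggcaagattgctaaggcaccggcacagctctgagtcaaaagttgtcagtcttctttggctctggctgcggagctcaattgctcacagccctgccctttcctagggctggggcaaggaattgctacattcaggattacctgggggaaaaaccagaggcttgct
Slc7a7 (chr14:54417895-54418194, minus strand): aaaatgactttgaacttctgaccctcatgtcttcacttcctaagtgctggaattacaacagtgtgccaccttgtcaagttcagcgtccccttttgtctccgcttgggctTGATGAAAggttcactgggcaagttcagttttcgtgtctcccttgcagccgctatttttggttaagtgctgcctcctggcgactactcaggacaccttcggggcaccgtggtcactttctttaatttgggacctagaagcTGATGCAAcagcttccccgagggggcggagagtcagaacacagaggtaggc
Slc7a1 (chr5:148392766-148393065, minus strand): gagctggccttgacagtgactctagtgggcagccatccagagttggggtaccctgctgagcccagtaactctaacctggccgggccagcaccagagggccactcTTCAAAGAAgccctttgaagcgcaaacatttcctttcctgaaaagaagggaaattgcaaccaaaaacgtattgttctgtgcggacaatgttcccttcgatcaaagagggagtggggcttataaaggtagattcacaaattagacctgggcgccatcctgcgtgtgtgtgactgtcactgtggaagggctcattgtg
The Slc6a14 window held none of the motifs searched. The Slc7a7 window held TGATGAAA starting 141 bases and TGATGCAA starting 1 base before the annotated start, and the second of these also lies in an overlapping window of another Slc7a7 start. The STAT element of Slc7a1 began 146 bases before 1 of its 2 starts. TGATGNAA occurred in 3 of the 61 windows, from Slc7a7 and Slc1a4 (reverse strand), which is 4.92% against 3.97% of all 32851 windows. TTCNNNGAA occurred in 3 windows, from Slc1a3, Slc38a9 and Slc7a1, or 4.92% against 8.30% of all. The C/EBP element TTGCNNAA occurred in 8 windows, or 13.1% against 10.8% of all, and no window held more than 1 kind of motif. These matches are letters in a window and not sites of binding.

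Slc7a2 and Slc7a1 encode CAT-2 and CAT-1, membrane carriers of arginine, lysine and ornithine. Slc7a2 (Entrez gene 11988, GRCm38 chromosome 8, 40862341 to 40922070) had 267, 350.4 and 329 CPM in the RANKL libraries, against 8.49, 12.3 and 5.40 CPM in the control libraries. Every RANKL library was far above every control, and the RANKL libraries lay close together. Slc7a2 rose 36.1-fold (log2 fold change 5.18 ± 0.31, SE; edgeR adjusted p = 4.55e-06). Slc7a1 (Entrez gene 11987, chromosome 5, 148327410 to 148399904) had 57.1, 71.4 and 51.9 CPM in the RANKL libraries, against 73.8, 45.9 and 38.8 CPM in the control libraries. The groups overlapped, with the highest value in control library 1 and the lowest in control library 3. Its log2 fold change was 0.19 ± 0.25 (edgeR adjusted p = 0.523), and it was not called with any 1 library left out (adjusted p of 0.0610 to 0.978). Of the 8662 exon bases of Slc7a2, 162 overlap Gm26584 on the opposite strand, and the strand setting of the counting was not given in the sources used here.

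The ratio of Slc7a2 to Slc7a1 reads within a library does not depend on library scaling. On the log2 scale it was 2.23, 2.30 and 2.66 in the RANKL libraries, against -3.12, -1.90 and -2.84 in the control libraries. Slc7a2 thus had the more reads in all 3 RANKL libraries and Slc7a1 in all 3 controls. The group means, 2.39 ± 0.23 with RANKL and -2.62 ± 0.64 in controls, differed by 5.01 (two-sided exact permutation p = 0.1, the smallest that 3 against 3 libraries allow). Slc7a2 alone already separated the groups widely while Slc7a1 varied little, so this p adds nothing to the Slc7a2 call. Per kilobase of exon, Slc7a2 made up 79.6 ± 2.37% of the summed level of Slc7a1, Slc7a2 and Slc7a3 in RANKL thymus and 12.1 ± 4.89% in control thymus. Slc7a1 made up 18.4 ± 2.34% of it with RANKL and 85.6 ± 5.52% in controls. That summed level was 39.6, 51.5 and 46.1 CPM per kb in the RANKL libraries, against 11.3, 8.03 and 6.23 in the control libraries. The groups did not overlap, and the leading carrier changed from one gene to the other.

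Slc7a3, or CAT-3, known mainly from brain, had 2.31, 3.29 and 2.73 CPM in the RANKL libraries, against 0.264, 0.618 and 0.621 CPM in the control libraries. It was higher in every RANKL library than in any control, at 5.48-fold (log2 fold change 2.45 ± 0.44, edgeR adjusted p = 0.000933), and 2 control libraries passed the filter. Slc7a4, a CAT-like protein for which transport of cationic amino acids has not been shown, had 9.58, 10.7 and 10.2 CPM with RANKL and 2.69, 2.42 and 3.15 CPM in controls. The groups were well apart, at 3.69-fold (log2 fold change 1.88 ± 0.26, adjusted p = 0.000197). Slc7a14, a lysosomal CAT-like protein, had 20 reads over the RANKL libraries and 2 over the controls and did not pass the filter.

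Slc6a14, or ATB0,+, a sodium and chloride driven carrier of both cationic and neutral amino acids known from mucosal epithelia, showed the largest rise of all transporters tested. Slc6a14 (Entrez gene 56774, chromosome X, 21714900 to 21742358) had 60.5, 178 and 58.9 CPM in the RANKL libraries, against 0.369, 0.0515 and 0.0956 CPM in the control libraries. RANKL library 2 stood at 3.02 times the lowest RANKL library, and the controls held 7, 1 and 2 reads. The log2 fold change was 9.15 ± 0.70 (edgeR adjusted p = 1.07e-05). It was 8.42 without RANKL library 2 and 10.25 without control library 1. There were 6745 reads in RANKL and 10 in control libraries, a ratio of 630.3 after scaling to library totals, with a 95% counting interval of 343 to 1315 that covers counting error only. Per kilobase it ranked 8th among the transporters in RANKL thymus and 43rd in control thymus. The epithelial markers that were higher in the same libraries are given above, and their part in this rise was not tested.

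The exchangers Slc7a7 and Slc7a6, which pass cationic amino acids out of cells, had smaller estimates than Slc7a2 and Slc6a14. Slc7a7 (y+LAT1, chromosome 14, 54369442 to 54420068), the light chain that pairs with CD98 in macrophages and epithelia, had 43.7, 33.8 and 38.9 CPM in the RANKL libraries, against 27.0, 18.9 and 22.0 CPM in the control libraries. All RANKL values exceeded all control values, and it rose 1.71-fold (log2 fold change 0.78 ± 0.19, edgeR adjusted p = 0.00587), with 232 of its 2630 exon bases shared with Oxa1l on the other strand. Slc7a6 (y+LAT2), its close relative in many tissues, had 65.8, 54.7 and 61.3 CPM with RANKL and 90.2, 79.9 and 67.7 CPM in controls. Every RANKL library was below every control, yet the log2 fold change of -0.39 ± 0.16 was not called (adjusted p = 0.0621) and was called at -0.51 without control library 3 (adjusted p = 0.0218). Slc3a1 (rBAT), the heavy chain of kidney cystine and cationic amino acid uptake, had 0.215, 0.122 and 0.471 CPM with RANKL and 1.16, 0.979 and 0.143 CPM in controls. RANKL library 3 lay above control library 3, so the groups overlapped. This gene had 17 reads over the RANKL libraries and 44 over the controls, and 601 of its exon bases overlap Prepl. Its partner Slc7a9 had 13 reads over the RANKL libraries and 1 over the controls. In all, 5 of 7 tested genes of the cationic group were higher and 2 not called, against 33.8% of all genes called higher. Of those 5, Slc7a3 and Slc6a14 had fewer than 3 control libraries over the filter, and Slc6a14 had none. The group includes the CAT-like Slc7a4, whereas Slc38a4, which also takes up cationic amino acids, was counted with the Slc38 carriers.

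**Figure D2:**
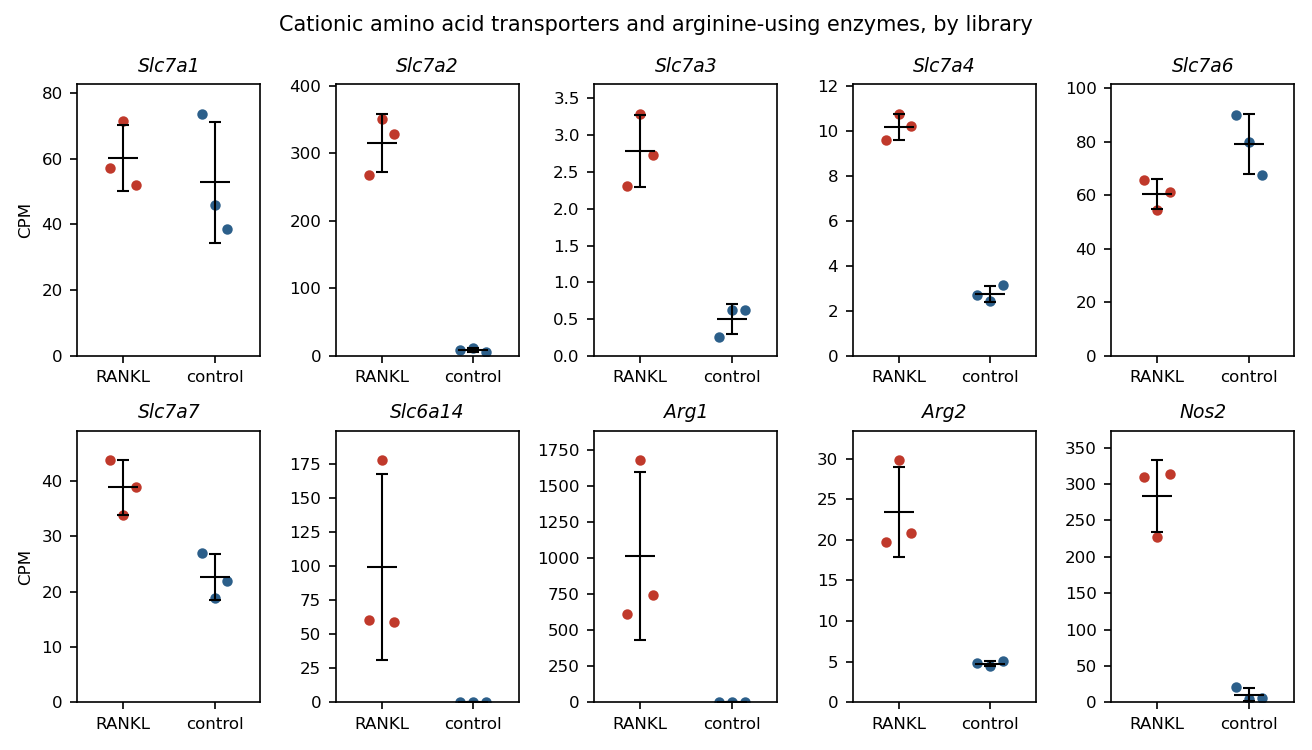
Level of cationic amino acid carriers and of the arginine-using enzymes Arg1, Arg2 and Nos2 in each library, in CPM on linear axes from 0, RANKL left and control right. Points are libraries, long lines group means and bars SD (n = 3 each). Slc7a2, Slc6a14 and Arg1 leave the controls close to the axis, whereas the Slc7a1 values of 51.9 to 71.4 CPM with RANKL lie within the control range of 38.8 to 73.8.

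Arginase uses arginine, which these carriers can import, and its transcripts were measured in the same libraries. Whether arginase and the carriers were expressed in the same cells was not tested. Arg1, the cytosolic arginase of liver and of alternatively activated macrophages (chromosome 10, 24915207 to 24927470), had 616, 1683 and 746 CPM in the RANKL libraries, against 1.05, 0.876 and 0.765 CPM in the control libraries. RANKL library 2 was highest at 2.73 times the lowest, RANKL library 1, and no control exceeded 1.05 CPM. The rise was 1126-fold (log2 fold change 10.14 ± 0.52, edgeR adjusted p = 3.64e-06). Arg2, the mitochondrial arginase, had 19.8, 29.8 and 20.8 CPM in the RANKL libraries, against 4.85, 4.43 and 5.06 CPM in the control libraries. It rose 4.90-fold, with every RANKL library above every control (log2 fold change 2.29 ± 0.24, adjusted p = 4.26e-05). Of the 1428 exon bases of Arg2, 285 overlap Vti1b on the opposite strand. Nos2, the inducible nitric oxide synthase that competes with arginase for arginine, had 310.4, 227 and 314 CPM in the RANKL libraries, against 21.4, 4.74 and 6.26 CPM in the control libraries. Its rise of 26.3-fold (log2 fold change 4.72 ± 0.54, adjusted p = 9.1e-05) came to a log2 fold change of 5.66 without control library 1.

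Set per kilobase of exon, the summed arginases stood at 10.9, 22.5 and 11.3 times the summed Slc7a1, Slc7a2 and Slc7a3 in the RANKL libraries, against 0.362, 0.460 and 0.652 times in the control libraries. In control thymus the carriers thus exceeded the arginases in every library, and with RANKL the arginases exceeded the carriers in every library. Within the RANKL group Arg1 and Slc7a2 had the same order, with library 2 highest and library 1 lowest. Arg1 spanned 2.73-fold there and Slc7a2 1.31-fold. Slc6a14, Slc38a4 and Slc1a1 were also highest in RANKL library 2, and among the 27 called rises the highest RANKL value fell in library 1 for 12, library 2 for 13 and library 3 for 2. With 3 libraries in each of 2 separate groups, no correlation between arginase and the carriers is given. Markers of several cell types, among them macrophages, neutrophils, epithelium and fibroblasts, were higher in the same libraries, as given above. The part of any of these cell types in the Slc7a2 and Arg1 rises was not tested.

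**Figure D3:**
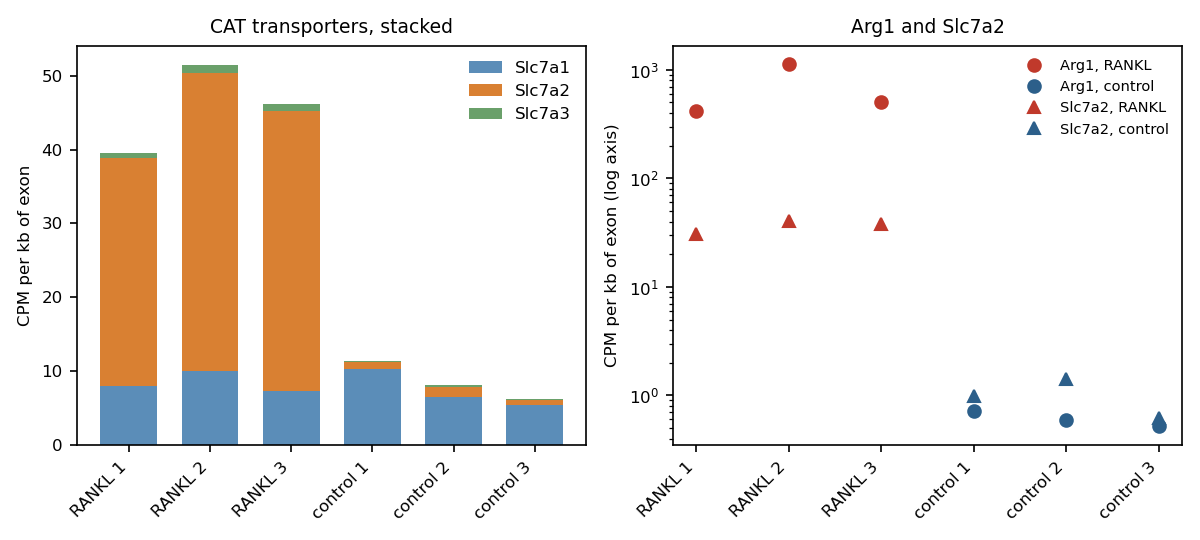
Left, stacked bars of Slc7a1, Slc7a2 and Slc7a3 in each library, in CPM per kilobase of exon. Right, Arg1 (circles) and Slc7a2 (triangles) in each library in the same unit on a log axis, RANKL libraries first. Slc7a2 forms most of each RANKL bar and Slc7a1 most of each control bar, and Arg1 lies at 417 to 1140 with RANKL and 0.518 to 0.714 in controls.

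Of 21 tested genes of arginine and polyamine metabolism, 12 were higher with RANKL, 3 were lower (Azin1, Sms and Ddah2) and 6 were not called, against 33.8% higher and 29.6% lower over all genes. Their median log2 fold change was 1.00, against -0.02 over all genes. Odc1, the ornithine decarboxylase that turns the product of arginase into putrescine, rose 2.10-fold (adjusted p = 0.000712). Gatm, which uses arginine for creatine synthesis, had 196, 242 and 258 CPM in the RANKL libraries, against 26.8, 19.1 and 23.2 CPM in the control libraries. It rose 10.1-fold with no overlap between groups (adjusted p = 4.41e-06). Asl, which releases arginine from argininosuccinate, rose 1.84-fold (adjusted p = 0.00168), and the polyamine oxidase gene Smox rose 4.70-fold (adjusted p = 0.00022). Oat, which turns ornithine towards proline, had a log2 fold change of 0.35 ± 0.17 that was not called (adjusted p = 0.0941). It was called with upper-quartile scaling (0.0336), with at least 10 reads in each library (0.0213) and without RANKL library 3 (0.0420). Ass1 was listed at 0 in all libraries, as was Oaz1, which most cells express, so a value of 0 is not read as absence of either transcript.

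CD98 and its light chains for large neutral amino acids, Slc7a5 and Slc7a8, were higher with RANKL. Slc7a10 and Slc7a6, which pair with CD98 as well, were not called. Slc3a2 (chromosome 19, 8706882 to 8723369), the CD98 heavy chain shared by Slc7a5, Slc7a6, Slc7a7 and Slc7a8, had 287, 309.6 and 303 CPM in the RANKL libraries, against 156, 118 and 138 CPM in the control libraries. The RANKL libraries lay close together and all above the controls, a rise of 2.19-fold (log2 fold change 1.13 ± 0.16, edgeR adjusted p = 0.000265). It ranked 1st per kilobase among the transporters with RANKL, at 99.3 CPM per kb, and 2nd in controls, at 45.4. Slc7a5 (LAT1), the leucine importer of dividing cells, had 102, 91.7 and 91.8 CPM in the RANKL libraries, against 64.4, 38.6 and 49.0 CPM in the control libraries. Slc7a8 (LAT2), its relative in epithelia, had 78.0, 119.7 and 101 CPM in the RANKL libraries, against 17.1, 12.3 and 11.9 CPM in the control libraries. Neither gene overlapped between groups. Slc7a5 rose 1.88-fold (log2 fold change 0.91 ± 0.20, adjusted p = 0.00279) and Slc7a8 7.23-fold (2.85 ± 0.23, adjusted p = 1.09e-05). Per kilobase, Slc7a8 made up 47.1 ± 6.79% of the sum of both light chains in RANKL thymus and 19.2 ± 2.12% in control thymus.

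Slc43a1 and Slc43a2, which move large neutral amino acids without CD98, fell. Slc43a1 (LAT3, chromosome 2, 84838855 to 84863586) had 7.11, 10.2 and 13.996 CPM in the RANKL libraries, against 54.1, 62.3 and 57.2 CPM in the control libraries. It showed the largest fall of all transporters, 5.54-fold with no overlap (log2 fold change -2.47 ± 0.25, edgeR adjusted p = 3.24e-05). Slc43a2 (LAT4) had 120.0, 114 and 108 CPM in the RANKL libraries, against 259, 231 and 167 CPM in the control libraries. It fell 1.92-fold (log2 fold change -0.94 ± 0.19, adjusted p = 0.00171), and 548 of its exon bases overlap Gm45606. Slc43a3, a purine base transporter of the same family, rose 1.51-fold (log2 fold change 0.59 ± 0.18, adjusted p = 0.0155). Slc7a10 (Asc-1), a light chain for small neutral amino acids, had a log2 fold change of -0.24 ± 0.45 (adjusted p = 0.654), and Slc7a15 had 31 reads over the RANKL libraries and 4 over the controls.

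Of the 9 sodium-coupled Slc38 carriers tested, 5 were higher, 3 were lower and 1 was not called, against 33.8% higher and 29.6% lower over all genes, so the lower share was near that of all genes. Of the 5 that were higher, Slc38a3 and Slc38a8 had fewer than 3 control libraries over the filter, and Slc38a8 had none. Slc38a2 (SNAT2), a broadly used carrier induced by amino acid shortage, had 204, 208 and 192 CPM in the RANKL libraries, against 505, 451 and 344 CPM in the control libraries. Slc38a1 (SNAT1), another plasma membrane glutamine carrier, had 88.4, 74.9 and 93.9 CPM in the RANKL libraries, against 265, 219 and 168 CPM in the control libraries. Slc38a9, the lysosomal arginine sensor that signals to mTORC1, had 13.1, 18.3 and 19.2 CPM in the RANKL libraries, against 32.9, 61.0 and 32.5 CPM in the control libraries. All RANKL libraries were below all controls for each of these, and control library 2 was the high one for Slc38a9. Slc38a2 fell 2.15-fold (log2 fold change -1.11 ± 0.18, edgeR adjusted p = 0.000572), Slc38a1 2.53-fold (-1.34 ± 0.20, 0.000302) and Slc38a9 2.49-fold (-1.32 ± 0.28, 0.00248). Slc38a2 ranked 4th per kilobase among transporters with RANKL and 1st in controls, and its share of the summed Slc38 level was 36.8 ± 2.95% with RANKL and 59.2 ± 1.32% in controls. The thymocyte markers were lower in the same libraries, and their part in these falls was not tested.

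Slc38a4 (SNAT4), best known from liver and placenta, which also takes up cationic amino acids, had 43.7, 124 and 36.5 CPM in the RANKL libraries, against 1.79, 3.35 and 2.68 CPM in the control libraries. RANKL library 2 was the high one, at 3.41 times the lowest RANKL value, and the groups did not overlap. Slc38a4 rose 26.1-fold (log2 fold change 4.70 ± 0.51, edgeR adjusted p = 5.66e-05), and by 3.94 on the log2 scale without that library. Slc38a3 (SNAT3), a glutamine carrier of liver, kidney and astrocytes, had 10.1, 5.73 and 9.47 CPM in the RANKL libraries, against 1.27, 0.464 and 0.239 CPM in the control libraries. It rose 12.9-fold (adjusted p = 0.000303), with a log2 fold change of 3.69 that became 4.55 without control library 1, and 1 control library passed the filter. Slc38a6 rose 2.14-fold (adjusted p = 0.00294) and Slc38a7, a lysosomal glutamine carrier in human cells, 1.55-fold (adjusted p = 0.0168). The Slc38a7 call was lost without RANKL library 2 (0.0507) or control library 2 (0.0563). Slc38a8 had 48 reads over the RANKL libraries and 6 over the controls, and no control library passed the filter. Its log2 fold change was 2.83 ± 0.80 (adjusted p = 0.0117). That call was lost without control library 3 (0.0536), and the value was 4.62 without control library 1. Slc38a10 had a log2 fold change of 0.13 ± 0.18 and was not called (adjusted p = 0.535). Slc38a5 had 40 reads over the RANKL libraries and 4 over the controls, and Slc38a11 had 8 reads over the RANKL libraries and 6 over the controls, and neither passed the filter.

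**Figure D4:**
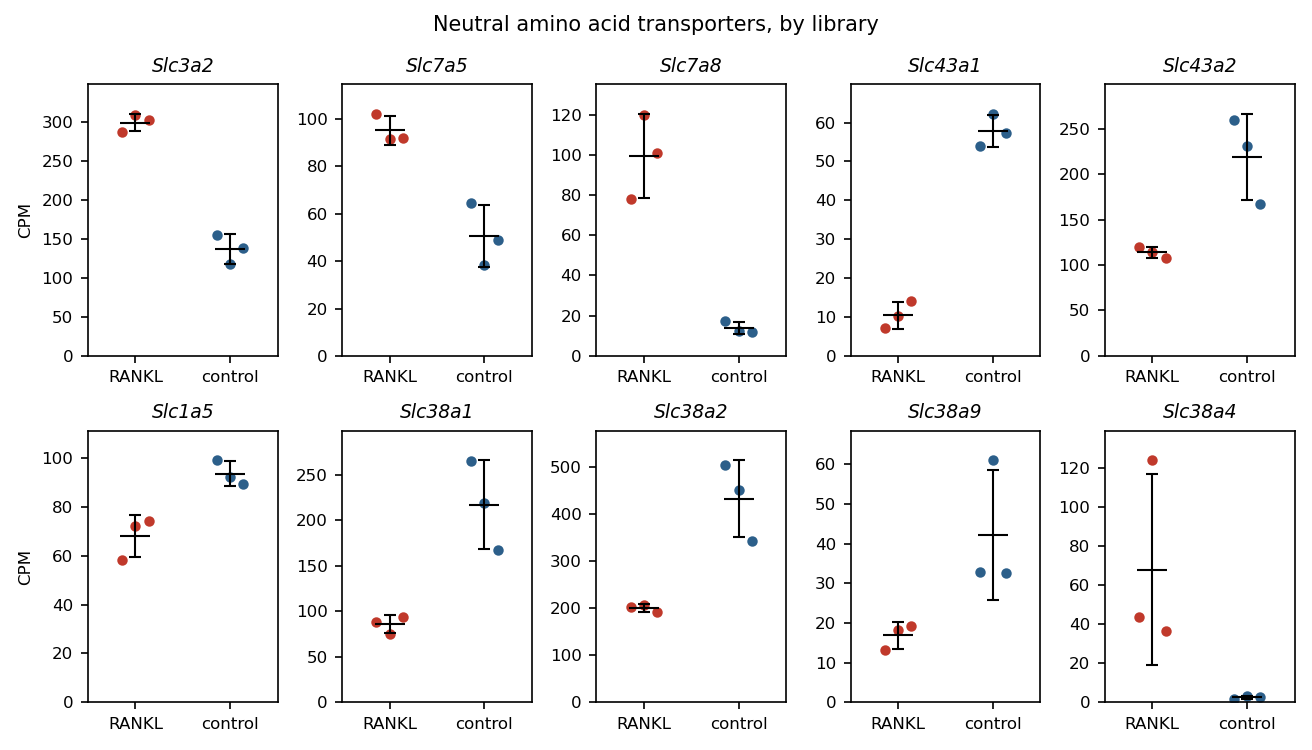
Level of neutral amino acid carriers in each library, in CPM from 0, RANKL left and control right. Points are libraries, long lines means and bars SD (n = 3 each). Slc3a2, Slc7a5, Slc7a8 and Slc38a4 are higher in all RANKL libraries, whereas Slc43a1, Slc43a2, Slc1a5, Slc38a1, Slc38a2 and Slc38a9 are lower in all of them.

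The Slc1 family holds glutamate carriers and the neutral exchangers Slc1a4 and Slc1a5. Slc1a1 (EAAC1, chromosome 19, 28835135 to 28913960), the glutamate, aspartate and cysteine carrier of neurons and epithelia, had 25.8, 54.9 and 32.0 CPM in the RANKL libraries, against 1.21, 0.670 and 1.43 CPM in the control libraries. Each RANKL library exceeded each control by a wide margin, with library 2 highest, a rise of 33.7-fold (log2 fold change 5.08 ± 0.39, edgeR adjusted p = 1e-05). Of its 3800 exon bases 1216 overlap 4430402I18Rik on the opposite strand. Slc1a2 (GLT-1), the main glutamate carrier of astrocytes, had 19.5, 10.04 and 14.1 CPM in the RANKL libraries, against 2.58, 2.06 and 2.48 CPM in the control libraries. It rose 6.11-fold without overlap (log2 fold change 2.61 ± 0.31, adjusted p = 8.77e-05). Slc1a5 (ASCT2), a glutamine exchanger used by activated T cells and tumours, had 58.4, 71.9 and 74.1 CPM in the RANKL libraries, against 99.0, 91.9 and 89.3 CPM in the control libraries. All RANKL values were below all controls, and the fall was 1.37-fold (log2 fold change -0.45 ± 0.15, adjusted p = 0.0269). The Slc1a5 call was lost without RANKL library 1 (0.138) or 3 (0.0546), without control library 1 (0.0553), with upper-quartile scaling (0.0596) and with at least 10 reads in each library (0.110).

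Slc1a3 (GLAST), a glial glutamate carrier, had a log2 fold change of 0.54 ± 0.22 (edgeR adjusted p = 0.0561). It was called without RANKL library 2 (0.00917), with upper-quartile scaling (0.0337), with at least 10 reads in each library (0.0222) and by DESeq2 (0.0497). Slc1a4 (ASCT1) had a log2 fold change of 0.13 ± 0.23 (adjusted p = 0.651). The retinal and cerebellar glutamate carriers Slc1a7 and Slc1a6 did not pass the filter, with 18 reads over the RANKL libraries and 5 over the controls for Slc1a7 and 24 reads over the RANKL libraries and 3 over the controls for Slc1a6.

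None of the 3 tested proton-coupled Slc36 carriers was called. Slc36a1 (PAT1), which exports small amino acids from lysosomes, had 49.7, 56.2 and 54.3 CPM in the RANKL libraries, against 65.4, 85.4 and 43.1 CPM in the control libraries. Its values overlapped between groups, with a log2 fold change of -0.27 ± 0.23 (edgeR adjusted p = 0.321) that was called at -0.51 without control library 3 (adjusted p = 0.0292). Slc36a2 (PAT2), a surface marker of brown fat, had 23.8, 20.5 and 19.98 CPM in the RANKL libraries, against 29.4, 15.8 and 26.9 CPM in the control libraries. The groups overlapped, at a log2 fold change of -0.16 ± 0.24 (adjusted p = 0.576). Fat markers were lower for 2 of 8 and higher for none, summing to 551 to 697 CPM with RANKL and 411 to 1069 CPM in controls, and their part in the level of Slc36a2 was not tested. Slc36a4, a carrier of proline and tryptophan, had 9.04, 7.16 and 4.85 CPM in the RANKL libraries, against 7.70, 5.77 and 6.36 CPM in the control libraries. Its groups overlapped as well (log2 fold change 0.09 ± 0.30, adjusted p = 0.815). Slc36a3 had 45 reads over the RANKL libraries and 3 over the controls.

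Among the Slc6 carriers of transmitters, creatine and osmolytes, 8 of 9 tested were higher and 1 was not called, against 33.8% of all genes called higher. Of those 8, 4 had fewer than 3 control libraries over the filter, and 2 of these, Slc6a3 and Slc6a11, had none. Slc6a8 (chromosome X, 73673133 to 73682502), the creatine importer, had 182, 203 and 161 CPM in the RANKL libraries, against 42.0, 40.3 and 30.5 CPM in the control libraries. All RANKL libraries were far above all controls, a rise of 4.84-fold (log2 fold change 2.27 ± 0.18, edgeR adjusted p = 1.18e-05). Per kilobase it ranked 2nd among transporters with RANKL, at 45.8 CPM per kb, and 14th in controls, at 9.48. Slc6a6, the taurine importer, had 326, 281 and 225 CPM in the RANKL libraries, against 181, 167 and 134 CPM in the control libraries. The groups did not overlap, and Slc6a6 rose 1.73-fold (log2 fold change 0.79 ± 0.19, adjusted p = 0.0053).

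Slc6a4 (chromosome 11, 76998597 to 77032343), the serotonin transporter of serotonergic neurons, platelets and gut epithelium, had 66.9, 36.6 and 56.8 CPM in the RANKL libraries, against 9.49, 4.84 and 5.59 CPM in the control libraries. The groups were well separated, at 8.04-fold (log2 fold change 3.01 ± 0.32, edgeR adjusted p = 4.3e-05). Slc6a3, the dopamine transporter, had 3.28, 1.505 and 3.16 CPM in the RANKL libraries, against 0.158, 0.206 and 0.143 CPM in the control libraries. The controls were close to the level of 3 reads in every library, and the rise was 15.1-fold (3.92 ± 0.52 on the log2 scale, adjusted p = 0.000166). Slc6a2, the noradrenaline transporter, had 2.21, 1.46 and 2.17 CPM in the RANKL libraries, against 0.633, 0.155 and 0.143 CPM in the control libraries. It rose 6.23-fold (log2 fold change 2.64 ± 0.58, adjusted p = 0.00318), and its log2 fold change was 3.63 without control library 1, the one control with more than 3 reads. Slc6a9 (GlyT1), the glycine carrier of glia and red cell precursors, rose 4.23-fold (adjusted p = 0.000377), with 1429 of its 3679 exon bases shared with Ccdc24.

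Carriers of GABA and betaine were low in CPM. Slc6a12 (BGT1), the betaine and GABA carrier, had 2.42, 2.81 and 2.92 CPM in the RANKL libraries, against 0.316, 0.309 and 0.526 CPM in the control libraries. It rose 6.95-fold without overlap (edgeR adjusted p = 0.000297), though 1 control library passed the filter. Slc6a11 (GAT3), a GABA carrier of astrocytes, had 69 reads over the RANKL libraries and 9 over the controls, and rose 7.04-fold (adjusted p = 0.00175). Slc6a13 (GAT2), known from liver, kidney and meninges, was the one member of this group with a negative estimate, at 3.18, 2.77 and 4.38 CPM in the RANKL libraries, against 4.96, 6.49 and 5.78 CPM in the control libraries. Every RANKL library was below every control, and the log2 fold change of -0.74 ± 0.30 was not called by edgeR (adjusted p = 0.0551) but was by DESeq2 (0.0394), limma-voom (0.0447) and without the low-count filter (0.0430). Slc6a5 (GlyT2) had 11 reads over the RANKL libraries and 0 over the controls, at least 3.43-fold higher against a limit of 3 reads over the control group.

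Markers of neurons and glia were measured beside these carriers. Of 11 tested, 6 were higher and 1, the myelin gene Mbp, was lower, against 33.8% and 29.6% of all genes, and their sum was 254 to 332 CPM with RANKL and 186 to 278 CPM in controls. Mbp took the most reads of the list in every library, with 2451, 2643 and 2291 reads with RANKL and 4428, 3123 and 3768 in controls. Aqp4, a water channel of astrocytes and some epithelia, had 905, 1348 and 458 reads with RANKL and 84, 80 and 75 in controls, and Sox10, a glial factor, had 48, 30 and 40 reads with RANKL and 10, 2 and 2 in controls. Snap25, a defining neuronal gene, had 3 to 6 reads in the RANKL libraries and 1 to 2 in the controls. Syt1, which is also used outside neurons, had 2183, 1352 and 2073 reads in the RANKL libraries, against 282, 66 and 165 in the control libraries. Rbfox3, the neuronal nuclear protein NeuN, had 32, 25 and 36 reads with RANKL and 3, 4 and 4 reads in controls. Of the defining neuronal genes Snap25 was thus near the level of 3 reads in both groups and Rbfox3 was higher with RANKL, and the part of these markers in the transmitter carriers was not tested.

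The Slc6 carriers of neutral amino acids are chiefly known from brain, kidney and gut. Slc6a7 (PROT), the proline carrier of brain, had 10.8, 19.1 and 38.3 CPM in the RANKL libraries, against 0.791, 0.670 and 0.860 CPM in the control libraries. RANKL library 3 was 3.56 times RANKL library 1, and all 3 exceeded the controls, which lay within a narrow range. Slc6a7 rose 29.1-fold (log2 fold change 4.86 ± 0.50, edgeR adjusted p = 3.69e-05). Slc6a15 (B0AT2), a carrier of branched-chain amino acids and proline, had 2.58, 1.71 and 1.18 CPM in the RANKL libraries, against 0.158, 0.155 and 0.239 CPM in the control libraries. It rose 9.54-fold (3.25 ± 0.52 on the log2 scale, adjusted p = 0.000474), with no control library over the filter. Slc6a17 (NTT4), a synaptic vesicle carrier, had 8.67, 9.03 and 6.64 CPM in the RANKL libraries, against 0.527, 2.06 and 0.621 CPM in the control libraries. Control library 2 was the high control, and the log2 fold change of 2.92 ± 0.50 (adjusted p = 0.00073) became 3.78 without it. Slc6a19 (B0AT1), the main neutral amino acid carrier of gut and kidney, had a log2 fold change of -0.08 ± 0.37 and was not called (adjusted p = 0.852). Slc6a18 had 65 reads over the RANKL libraries and 8 over the controls.

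**Figure D5:**
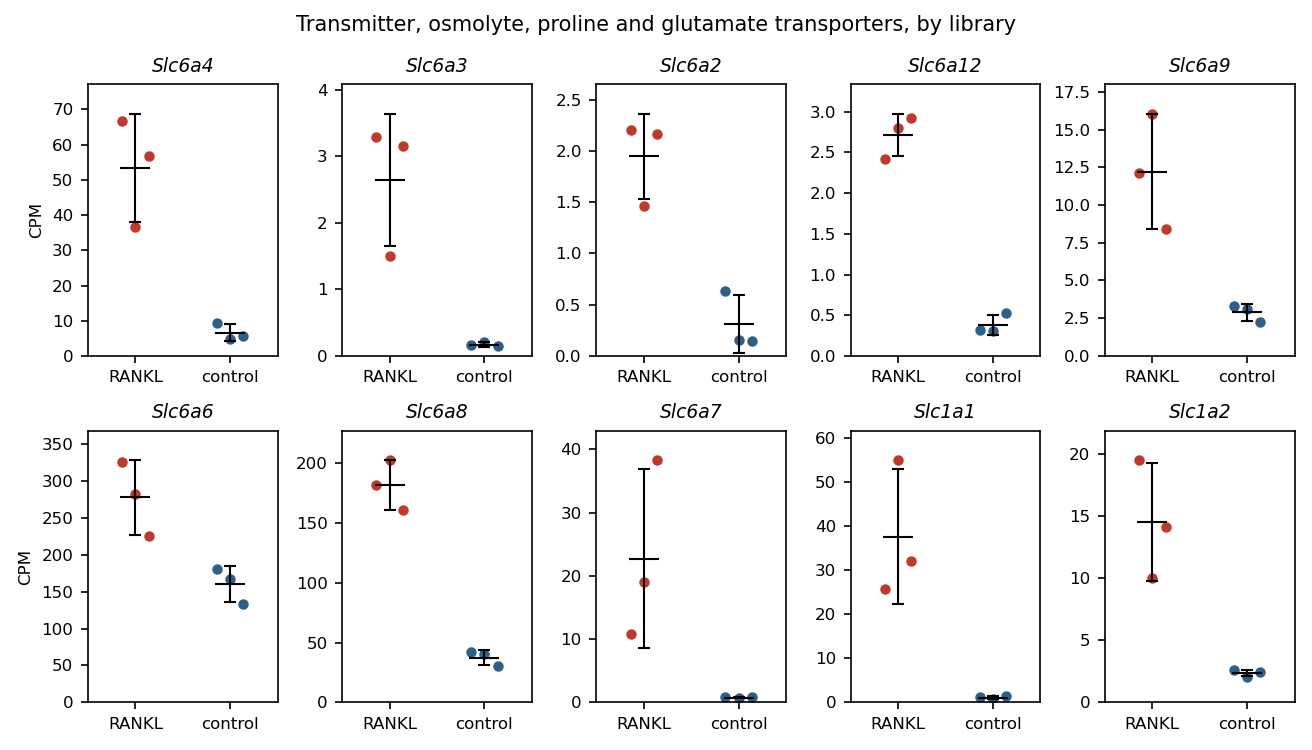
Level of carriers of transmitters, creatine, taurine and proline (Slc6) and of glutamate (Slc1a1, Slc1a2) in each library, in CPM on linear axes from 0, RANKL left and control right. Points are libraries, long lines group means and bars SD (n = 3 each). Only carriers called higher are drawn, so that no panel shows an overlap between groups reflects this choice. Among those not drawn, Slc1a3 overlapped between groups and Slc6a13 was lower in every RANKL library. Slc6a8 averages 182 CPM with RANKL and 37.6 CPM in controls.

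Because several carriers are targets of the amino acid response, in which ATF4 raises transport and synthesis genes during amino acid shortage, 20 genes of that response were counted beside them. With RANKL 8 were higher, 4 were lower and 8 were not called, and the median log2 fold change was 0.12, so the share called higher was near the 33.8% of all genes. Atf3, a stress-induced partner of ATF4, rose 11.8-fold (edgeR adjusted p = 3.64e-06), Cebpb 10.6-fold (8.08e-06), Nupr1 12.6-fold (1.24e-05) and Chac1, which degrades glutathione, 13.0-fold (6.39e-05). Atf4 itself had a log2 fold change of 0.30 and was not called (adjusted p = 0.14). The 4 lower genes, Psat1, Phgdh, Psph and Mthfd2, serve serine synthesis and one-carbon metabolism.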

How the data were processed

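Stranded mRNA libraries were made from 250 ng of thymus RNA, per the labels' protocols. The table the authors deposited held raw read counts per gene, with symbols and Entrez identifiers. STAR and the mm10 genome were used, per the submitters' processing notes. Its version, the counting tool, the strand setting and the annotation were not given in the sources used here, and genes with overlapping exons, 9 of the 56 transporters, may share reads.

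Genes were kept by filterByExpr of edgeR 4.0.16 in R 4.3.3, scaled by TMM factors and tested, RANKL over control, with the robust quasi-likelihood fit, two-sided and without covariates. P-values were adjusted by Benjamini-Hochberg across all 16096 kept genes and called under 0.05. CPM (counts per 1000000) used TMM-scaled totals, and each log2 fold change carries a standard error taken from its F statistic. Levels per kilobase used the union of exons of the GENCODE M21 annotation, and gene coordinates came from RefSeq on GRCm38. The read ratio used a pseudocount of 0.5. Within-group pairs of libraries differed beyond sampling noise, at 33.7 to 72.0 for chi-square over its degrees of freedom, so each counted as 1 replicate. Counting intervals are exact, at 95%, and cover counting error only.

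The transporters, role groups and gene lists were chosen with earlier results of these data known. Values by library are given for the cationic carriers except Slc7a9 and Slc7a14, whose reads are given as sums by group. They are also given for 5 carriers whatever their outcome (Slc3a2, Slc7a5, Slc1a5, Slc38a1, Slc38a2), the 3 smallest p in each role group, and the 5 largest called rises and falls. Some other carriers were added after their values were seen. Other settings tried were RLE or upper-quartile factors, library totals, other filters, no robust estimation, DESeq2 1.42.0, limma-voom (limma 3.58.1), blocking on title-number range, leaving out each library, calling under 0.01 and testing against 1.5-fold. The values of 1 untested transporter are not reported here. The code was tested on simulated counts. Promoters were RefSeq windows of GRCm38.p6. Figures were drawn with matplotlib 3.10.9.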

Additional observations from a re-analysis of the deposited data

How the results depend on the processing

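The transporters called higher numbered 19 to 36 and those called lower 5 to 9 over all settings, against 27 and 6. The ends came from at least 10 reads in each library (19 of 35 tested higher), from no low-count filter (36 of 56 higher) and from leaving out control library 3 (9 of 49 lower). Over all genes, 31.9% were higher with at least 10 reads in each library and 28.6% without the filter. The latter share is over 20797 genes, including genes below the 10 summed reads required of a transporter, so the 2 sets are unlike. Without control library 3, 27.9% of all genes were lower. Leaving out 1 library at a time gave 27 to 30 higher and 5 to 9 lower transporters, and 5149 to 5549 higher and 3902 to 4624 lower genes in all. A test against a 1.5-fold change called 2654 genes lower rather than 4765. RLE factors, library totals and no robust estimation changed no call among the 44, and upper-quartile factors moved the median of all genes from -0.02 to 0.08. The difference in the log2 read ratio of Slc7a2 to Slc7a1 was 4.97 with a pseudocount of 5 and 4.76 to 5.37 with 1 library left out, where 3 against 2 cannot give an exact permutation p below 0.2.

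No estimate of a sign opposite to the reported one was called. With 1 library left out the log2 fold change ran from -0.042 to 0.25 for Slc1a4 (negative without RANKL library 1 or control library 3), from -0.0086 to 0.49 for Slc7a1 (negative without control library 3) and from -0.094 to 0.33 for Slc36a4 (negative without RANKL library 1 or control library 2). It ran from -0.24 to 0.11 for Slc6a19 and from -0.59 to 0.042 for Slc7a10, both positive without RANKL library 2 or control library 2. Slc36a4 was -0.000325 without the filter. Slc6a19 was 0.020 with upper-quartile factors and 0.060 with at least 10 reads in each library. With the block for the title-number range Slc36a1 was 0.029, Slc6a19 0.14, Slc7a10 0.044 and Slc6a17 3.81. Control library 2 is alone in its range and adds nothing there. The calls of Slc1a5, Slc38a7, Slc43a3, Slc6a6 and Slc7a7 were lost in the test against 1.5-fold and those of Slc1a5, Slc38a7, Slc38a8 and Slc43a3 at a threshold of 0.01, and Slc7a6 was called without the filter (adjusted p = 0.0270). The cause of these changes was not tested. The replicate numbers follow accession order and pair nothing across groups, so the title-number range was the only block fitted. With it 27 transporters were higher and 6 lower, against 32.5% and 28.3% of all genes. The 12 carriers under the filter were tested only where the filter was dropped or, for some, a library was left out.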

Other observations

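Transporters outside the 56 above but with related cargo, among them Slc7a11 and Slc6a20a of the same families, were counted from a separate list. Of 18 tested, 7 were higher with RANKL (Slc7a11, Slc6a20a, Slc15a1, Slc15a3, Slc18a1, Slc18a2 and Pqlc2), 3 were lower (Slc15a2, Slc16a10 and Slc25a15) and 8 were not called, with a median log2 fold change of 0.19. The share called higher was near that of all genes, 33.8%. Slc18a2, the vesicular monoamine carrier that loads serotonin and dopamine into granules, had 7.27, 5.21 and 11.4 CPM in the RANKL libraries, against 3.06, 4.95 and 4.01 CPM in the control libraries, with an edgeR adjusted p of 0.0325. Pqlc2, the lysosomal exporter of cationic amino acids, had 14.7, 20.3 and 13.9 CPM in the RANKL libraries, against 10.4, 9.999 and 8.31 CPM in the control libraries (adjusted p = 0.016), and Slc25a15, which carries ornithine into mitochondria, had 14.1, 14.2 and 14.8 CPM in the RANKL libraries, against 21.1, 19.1 and 22.1 CPM in the control libraries (adjusted p = 0.0267).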
